A study of Mus musculus with 4 samples.

Results

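Structural microtubule-associated proteins bind along the microtubule lattice, where they set its stability and the access of motor proteins. The 10 genes described here are the MAP7 family (Map7, Map7d1, Map7d2 and Map7d3), the MAP2 and tau family (Map2, Mapt and Map4), the MAP1 family (Map1a and Map1b) and Map6, out of 21031 protein coding genes. They were chosen by the high trap reads of Map7 and Map2 in the same tables, so their reads are given as a description with no test. Of the 10 genes, 7 had at least 1 read in either library and 3 had none.

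The reads mark transposon insertions in pools of haploid mouse cells of a 129Sv background that the labels call neural stem cell-like. The labels give the same treatment for all 4 samples. Haploid embryonic stem cells were grown as embryoid bodies for 3 days and then in N2B27 medium with FGF2 and EGF (20 ng/ml each), the BMP receptor inhibitor LDN193189 (300 nM), the activin and TGF-beta receptor inhibitor SB431542 (10 μM) and a ROCK inhibitor (Y-27632, Thiazovivin or both). The differentiated cells received 20 μg of a piggyBac gene trap plasmid and 10 μg of a transposase plasmid, and G418 selected for trap insertions. Fragments that join the transposon end to genomic DNA were enriched by splinkerette PCR, in which an adapter is ligated to the DNA before nested amplification, and sequenced. The labels divide the samples into library 1 and library 2, of 2 samples each, and each library has 1 table of reads per gene. No value has a replicate check, and a difference between the libraries compares 2 pools of reads, not conditions. The titles of the samples in a library differ in a last number, 3 or 5, that the labels do not explain, so what a pooled read count sums over is not known. Nor do the labels say whether the libraries came from separate transfections.

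MAP2 and tau are classical neuronal microtubule proteins, concentrated in dendrites and axons respectively, while MAP4 is their relative in many other cell types. MAP7 proteins recruit the motor kinesin-1 to microtubules, MAP1A and MAP1B are made as large precursors that are cut into heavy and light chains, and MAP6 makes microtubules resistant to cold. In a gene trap screen, a haploid cell with an insertion that disrupts one of these genes has no other copy of it. The measured quantity is DNA at insertion sites, so gene expression was not measured. Whether the G418 selection made the reads of a gene depend on its expression was not tested. The labelled cell type could not be checked against marker genes.

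The piggyBac transposon inserts at the tetranucleotide TTAA. The sequence just upstream of the start of Map7 and of Map2, the pair of genes for which the family was chosen, is shown beside that of the downstream of the 2 starts of Map7d2, a family member with single reads, picked as the member window with most TTAA. The 250 bases before each start are from RefSeq on GRCm38.p6, which is not the build of the read tables, are written 5′ to 3′ on the strand of the gene, and carry TTAA in capitals.
Map7, chr10:20148670-20148919, plus strand: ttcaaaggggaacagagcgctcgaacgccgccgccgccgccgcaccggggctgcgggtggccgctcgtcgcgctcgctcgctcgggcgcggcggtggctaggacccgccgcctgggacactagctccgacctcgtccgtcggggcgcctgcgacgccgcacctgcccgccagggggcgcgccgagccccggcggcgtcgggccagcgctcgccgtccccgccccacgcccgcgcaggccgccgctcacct
Map2, chr1:66175079-66175328, plus strand: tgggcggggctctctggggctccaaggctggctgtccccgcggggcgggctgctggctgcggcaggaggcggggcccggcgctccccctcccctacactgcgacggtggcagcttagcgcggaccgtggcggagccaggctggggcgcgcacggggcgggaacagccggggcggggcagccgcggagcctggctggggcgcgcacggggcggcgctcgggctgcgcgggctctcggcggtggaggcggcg
Map7d2, chrX:159458875-159459124, plus strand: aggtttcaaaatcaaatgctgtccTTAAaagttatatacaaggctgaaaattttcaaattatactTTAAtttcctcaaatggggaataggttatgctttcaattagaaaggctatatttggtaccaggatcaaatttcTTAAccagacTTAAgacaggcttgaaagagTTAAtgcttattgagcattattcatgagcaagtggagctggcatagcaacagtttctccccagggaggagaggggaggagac

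TTAA, which reads the same on both strands, was absent from the Map7 and Map2 windows and occurred 5 times in the Map7d2 window shown. The window before the upstream start of Map7d2, not shown, held 1 TTAA at a GC content of 69.2%. The Map7 window had a GC content of 80.4%, that of Map2 81.2% and the Map7d2 window shown 37.2%. Over all 32851 upstream windows of this length, 49.0% held at least 1 TTAA, 1.46% held 5 or more, and the median GC content was 52.4%. Among the 363 windows with at least the GC content of the Map7 window, 3.31% held a TTAA. Windows could be matched for 8 of the 10 genes, 11 windows in all, and 5 of these held a TTAA. Map6 and Mapt were not matched. The tables give no insertion positions, so these windows cannot be set against the reads, and the absence of the 4 letters says nothing of the rest of a gene.

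Map7 led the family. The gene had 1315 nonredundant reads in library 1, or 2.37% of the 55442 reads of that library (95% interval 2.25 to 2.50), and ranked 2 among all genes. In library 2 it had 3 reads, or 0.00615% of 48750 (0.00127 to 0.0180). Intervals here and below are exact Clopper-Pearson intervals that cover counting error only. How reads were made nonredundant is not given, so whether PCR copies of the same molecule remain is not known. Nor is the number of separate insertions behind the reads of a gene. The share was thus 385.4-fold higher in library 1 (exact conditional 95% interval 131.6 to 1871.4). Map7 therefore stood near the top of one library and among the lightly read genes of the other.

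The relatives of Map7 had almost none of these reads. Map7d2 had 1 read in each library. Map7d1 and Map7d3, which like Map7 encode partners of kinesin-1, were listed in neither, and the usual limit of 3 reads for a count of 0 corresponds to 0.00541% of library 1 and 0.00615% of library 2. The exact two-sided interval for 0 reads reaches 0.00665% and 0.00757%. Of the 1316 nonredundant reads of the MAP7 family in library 1, 1 lay outside Map7.

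Map2 was far below Map7 but clearly listed in library 1, with 41 nonredundant reads, 0.0740% of the library (95% interval 0.0531 to 0.100), and rank 257. In library 2 the gene had 1 read, or 0.00205% (5.19e-05 to 0.0114). The ratio of the shares was 36.1, with an interval of 6.12 to 1458.2 that is wide because it rests on that 1 read. The other genes with the same type of microtubule-binding repeats were at the edge of detection. Mapt, which encodes tau, and Map4 each had 1 read in library 1 and none in library 2.

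Map6 was the one member with 10 or more reads in both libraries. It had 30 nonredundant reads in library 1, or 0.0541% (95% interval 0.0365 to 0.0772), and 17 in library 2, or 0.0349% (0.0203 to 0.0558). These intervals overlap, and the ratio of the shares was 1.55 (0.829 to 3.00). Map6 was one of 43 protein coding genes, or 0.204% of all, with 10 or more reads in both libraries, and 16 of these 43, Map6 among them, had shares of nonredundant reads within 2-fold of each other. With redundant reads the share of Map6 was 0.0136% in library 1 (0.0112 to 0.0162) and 0.00415% in library 2 (0.00312 to 0.00542). The ratio was then 3.26, with intervals that do not overlap. It also carries a difference between the whole libraries. Summed over all genes, redundant reads outnumbered nonredundant ones 15.8-fold in library 1 but 26.7-fold in library 2. For Map6 alone the excess was 3.97-fold and 3.18-fold. Whether Map6 itself differed between the libraries was not tested. In library 2 it ranked 213 and held 17 of the 22 reads of all members (77.3%). Of the MAP1 genes, Map1b had 2 reads in library 1 and none in library 2, and Map1a was listed in neither.

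**Figure D1:**
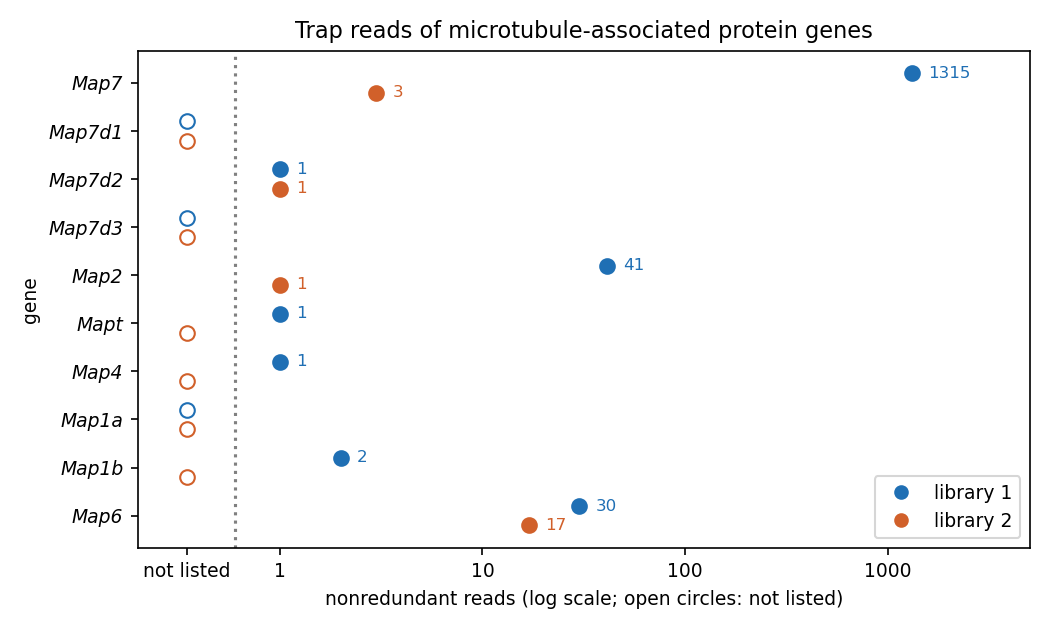
Nonredundant reads of each member on a log axis, in library 1 (blue) and library 2 (orange), with open circles for genes that were not listed. Map7 (1315 reads) and Map2 (41) stand out in library 1 but not in library 2, Map6 (30 and 17) has 10 or more reads in both, and no other member exceeds 2 reads.

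Counted over the family, library 1 listed 7 of the 10 genes, beside 19.9% of all protein coding genes, and library 2 listed 4 of 10, beside 15.0%. The 4 genes of library 2 (Map7, Map7d2, Map2 and Map6) were all among the 7 of library 1, which makes 4 in both libraries against 8.25% of all genes. In either library, 7 of the 10 genes were listed, beside 26.6% of all. At 10 or more reads, 3 of 10 remained in library 1 (Map7, Map2 and Map6; 2.37% of all genes) and 1 of 10 in library 2 (Map6; 1.40% of all genes). Since high reads of Map7 and Map2 led to the choice of the family, nothing is read from these shares. Single reads are weak evidence for an insertion: 53.7% of the genes in library 1 and 59.7% of those in library 2 had exactly 1 read. Members with 1 read were Map7d2, Mapt and Map4 in library 1, and Map7d2 and Map2 in library 2. The median member had 1 read in library 1 and 0 in library 2, and the median protein coding gene had 0 in both.

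A large difference between the libraries was not particular to Map7 and Map2. Among the 821 genes with 10 or more summed reads, a share at least 10-fold higher in library 1 was found for 37.1%, and one at least 10-fold higher in library 2 for 22.7%, with a count of 0 set at 3 reads. Of the 3 members with 10 or more summed reads, Map7 and Map2 were in the first group, none was in the second, and Map6 was in neither. The members together had 1391 reads in library 1, or 2.51% of the library (95% interval 2.38 to 2.64), and 22 in library 2, or 0.0451% (0.0283 to 0.0683). Map7 held 94.5% of the former. Without it, the other members had 76 reads in library 1, or 0.137% (0.108 to 0.172), and 19 in library 2, or 0.0390% (0.0235 to 0.0609).

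The redundant reads, the other count column, whose definition is not given in the sources used here, set the leading members further apart. Map7 had 61389 redundant reads in library 1, 6.99% of all 877870 and rank 2 after the unconventional myosin gene Myo6 with 77367. That is 46.7 redundant reads for each nonredundant read. The 3 other genes whose nonredundant reads were within 1.5-fold of those of Map7 had a median of 32.7, so the ratio of Map7 was high but not outside its neighbours. Over the whole of library 1 it was 15.8.

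Map2 had only 57 redundant reads for its 41 nonredundant reads, a ratio of 1.39. Of 117 other genes with similar nonredundant reads in library 1, 17.1% had a lower ratio, and their quartiles were 1.49 and 6.51 around a median of 2.84. Map6, with fewer nonredundant reads than Map2 in library 1, had more redundant reads, 119, and a ratio of 3.97 against a median of 3.11 in 124 similar genes. In library 2 it had 54 redundant reads and a ratio of 3.18 against a median of 2.94 in 89 similar genes. The order of Map2 and Map6 in library 1 thus turns on which reads are counted. For Map7 in library 2, 10 redundant reads accompanied its 3 nonredundant reads. For Map1b, Mapt and Map7d2 both counts were equal, and for Map4 they were 1 and 2.

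**Figure D2:**
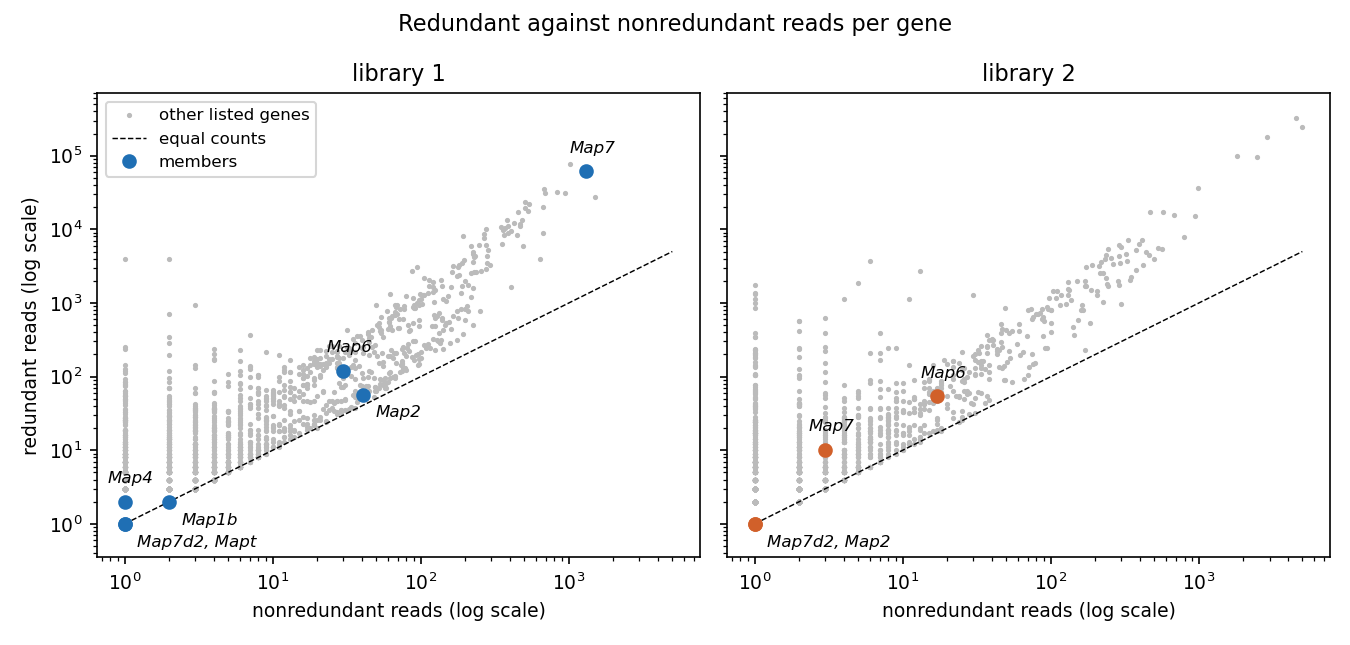
Redundant against nonredundant reads for every listed protein coding gene (grey) and for the members (coloured), in library 1 on the left and library 2 on the right, on log axes with a dashed line at equal counts. In library 1 Map7 lies at the top of the cloud (1315 and 61389 reads), Map2 (41 and 57) just above the line and Map6 (30 and 119) near the middle.

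In library 1, gene length separated the listed members from the others. Length is described here by 10 classes of equal gene number on GRCm38.p6. Map7, Map2 and Map4 were in class 10, the longest, and Map7d2, Mapt, Map1b and Map6 in class 9. These 7 are the listed genes of library 1. The 3 genes without reads were shorter, with Map7d3 in class 7 and Map7d1 and Map1a in class 6. In library 1, 71.7% of the genes of class 10 were listed, 42.8% of class 9, 20.3% of class 7 and 13.7% of class 6. In library 2 the shares were 58.3%, 29.3%, 15.9% and 10.5%. If each member had been listed at the share of its class, 4.34 of the 10 would be listed in library 1 and 3.29 in library 2, beside the 7 and 4 measured. In classes 9 and 10 together, 57.2% of 4207 genes were listed in library 1 and 43.8% in library 2, beside 7 of 7 and 4 of 7 members. The listed members include Map7 and Map2, which were chosen for their reads. In library 1 they also include Map7d2, Mapt and Map4, with 1 read each. Nothing is therefore read from the distance between members and class shares.

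**Figure D3:**
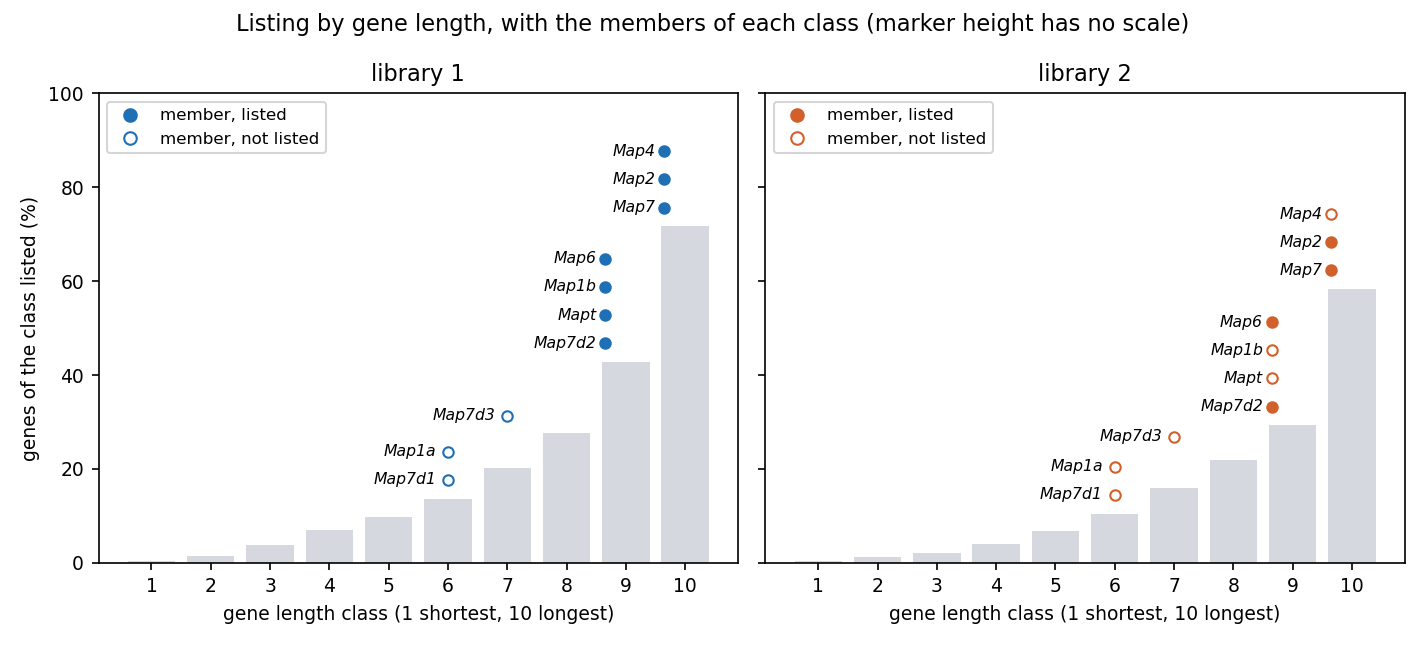
Bars give the percentage of genes listed in each length class, from 1 (shortest) to 10 (longest), in library 1 and library 2, and circles mark the members of a class, filled where the gene was listed. All members of classes 9 and 10 are filled in library 1, 4 of these 7 in library 2, and the 3 members of classes 6 and 7 are open in both.

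Among the 7 listed members, the number of reads in library 1 did not follow length. Map2, at length percentile 96.9, is longer than Map4 at 93.4 and Map7 at 92.0, yet Map7 had 1315 reads, Map2 41 and Map4 1 in library 1. Map6, at percentile 83.2, is the shortest listed member and had more reads than Map4, Mapt, Map1b and Map7d2. Of the 2104 genes in class 10, 2 had at least as many reads as Map7 in library 1, Map7 included, and 143 (6.80%) at least as many as Map2. Of the 2103 genes in class 9, 56 (2.66%) had at least as many reads as Map6 in library 1 and 49 (2.33%) in library 2. In library 2, 474 genes of class 10 (22.5%) had 3 or more reads, as Map7 did.

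**Figure D4:**
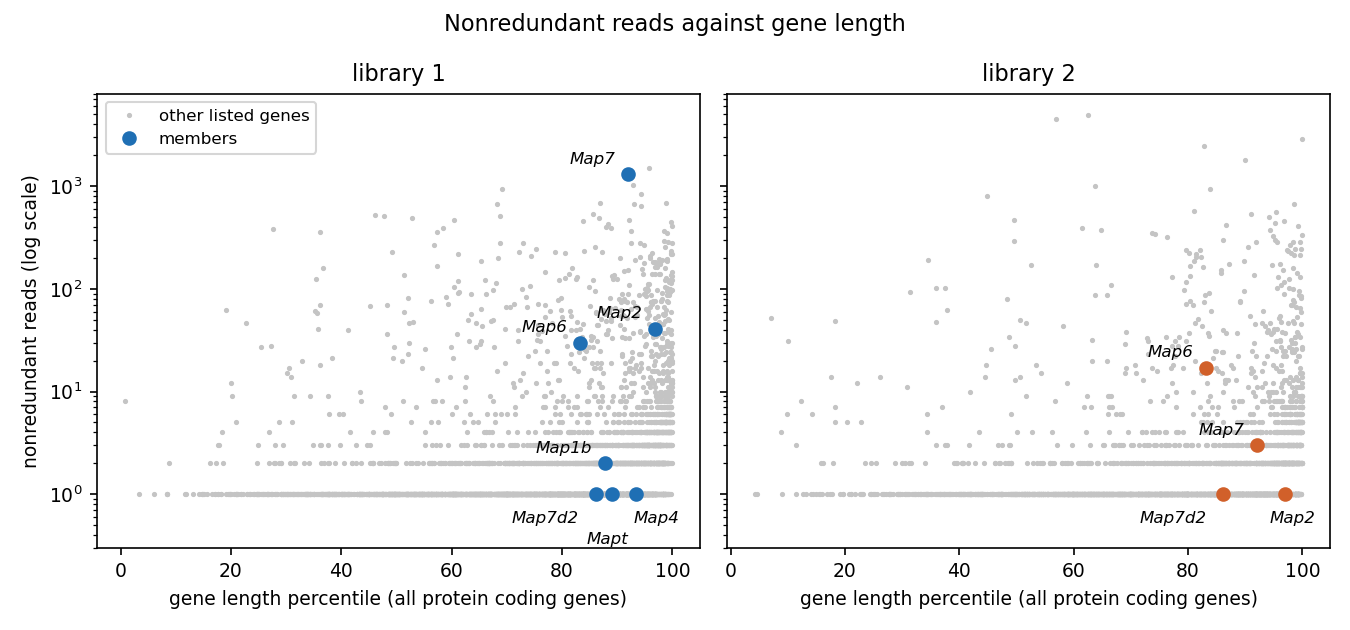
Nonredundant reads on a log axis against the length percentile of each listed protein coding gene (grey) and of the members (coloured). All listed members lie above percentile 83, but their reads range from 1 to 1315 in library 1 and from 1 to 17 in library 2.

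Few reads were assigned to the genes next to Map7. Whether reads ran past the bounds of Map7 cannot be seen, since no insertion positions are given. The next genes on its sides were Map3k5, a stress-activated kinase gene, with 2 nonredundant reads in library 1 and 5 in library 2, and Bclaf1 with 0 and 1. Rpl32l, which overlaps Map7, was not listed. Beside Map2, Unc80, which encodes a subunit of a sodium leak channel complex, showed the opposite order, with 2 reads in library 1 and 48 in library 2, and Crygf on the other side was not listed. The genes next to Map6, Mogat2 and Serpinh1, were not listed either. Over all members there were 23 adjacent or overlapping genes. Of these, 6 were listed in library 1 and 4 in library 2, beside 19.9% and 15.0% of all protein coding genes. At 10 or more reads there were 0 in library 1 and 1 in library 2 (Unc80), beside 2.37% and 1.40% of all. None of the 3 overlapping genes (Rpl32l, Ppip5k1 and Trp53bp1) had a read, beside 26.6% of all protein coding genes with one in either library. Nothing is read from so few genes, and how reads in overlapping genes were assigned is not given.

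The profile of a gene over both read columns of both libraries was compared with that of every other gene by the distance of log2(reads + 1). Closest to Map7 was Dok6, an adapter protein gene, with 693 nonredundant and 31291 redundant reads in library 1 and 2 and 5 in library 2 (distance 1.65). The Eph receptor gene Epha4 (668 and 20113, then 2 and 13 reads) and D6Wsu163e (949 and 31013, then 2 and 2) followed at 1.96 and 2.21. Closest to Map2 was C2cd2 with 41 and 59 reads in library 1 and 1 and 1 in library 2, at 0.0489, followed by Nhsl1 at 0.193 and the ubiquitin ligase gene Ubr3 at 0.717. These distances rest on 4 counts from 2 tables.

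Other genes of the microtubule system had at least 1 read about as often as their length classes. Of 97 such genes, 32 were listed in library 1, where the class shares sum to 31.6, and 29 in library 2, where they sum to 24.5. At 10 or more reads there were 8 in library 1 and 3 in library 2, or 8.25% and 3.09%, beside 2.37% and 1.40% of all protein coding genes. The class shares at this minimum sum to 4.50 and 2.61 genes. The median of these genes was 0 reads in both libraries. The highest counts among them were 199 for Eml5 in library 1 and 226 for Mtus2 in library 2.

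Among genes of other microtubule-associated proteins, Eml5, an echinoderm microtubule-associated protein-like gene, had 199 nonredundant reads in library 1 and none in library 2. Its relatives Eml1 (4 and 1) and Eml6 (3 and 1) had few. Of the 4 doublecortin genes, whose proteins bind microtubules in migrating neurons, Dclk1 had 16 and 1 reads, Dcx 8 and 0, and the others none. The class shares of these 4 genes sum to 2.14 and 1.68. Of 8 further MAP genes, Mtus2 had 5 reads in library 1 and 226 in library 2, Map1lc3b, an autophagy protein gene of the MAP1 light chain family, 0 and 2, and Mtus1 0 and 1. Mtus2 thus leaned to library 2, opposite to Map7 and Map2.

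Genes for plus end binding proteins were listed for 11 of 19 members in library 1 and 5 of 19 in library 2, where the class shares sum to 9.36 and 7.25. The giant crosslinkers of actin and microtubules led them, Macf1 with 176 and 6 reads and Dst with 57 and 0, followed by Nav3, a neuron navigator gene, with 10 and 0. For minus end binding, Camsap1 had 2 and 1 reads and the other 2 genes none, where the class shares sum to 0.842 and 0.618. Of the 3 heavy chain genes of kinesin-1, the motor that MAP7 recruits, Kif5a had 2 and 0 reads, Kif5c 1 and 0, and Kif5b was not listed. The class shares of these 3 genes sum to 1.27 and 1.02.

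Of 7 genes for proteins that sever microtubules, 0 were listed in library 1 and 3 in library 2, where the class shares sum to 2.18 and 1.68. The difference between the libraries was not tested. The listed genes include Katnal1, a katanin subunit, with 31 reads and Katna1 with 2. Of 18 tubulin modification genes, 6 were listed in each library, close to the class sums of 6.39 and 5.0. They were led by the deglutamylase gene Agbl3 (35 and 0), the glutamylase gene Ttll11 (2 and 31) and Agbl4 (20 and 7). Among 9 kinase and kinase activator genes that act on microtubule-associated proteins, 4 and 3 were listed, beside class sums of 3.05 and 2.3. They were led by Mark1 (1 and 2), Dyrk1a (2 and 1) and Mark3 (2 and 0). The short tubulin genes had 1 of 16 and 3 of 16 listed, where the class shares sum to 0.845 and 0.566. Tuba1b (0 and 6), Tubb6 (0 and 2) and Tubd1 (1 and 1) came first, and reads of closely similar tubulin copies may not be separable. The 4 stathmin genes, whose proteins sequester tubulin, had none, where the class shares sum to 0.482 and 0.348.

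**Figure D5:**
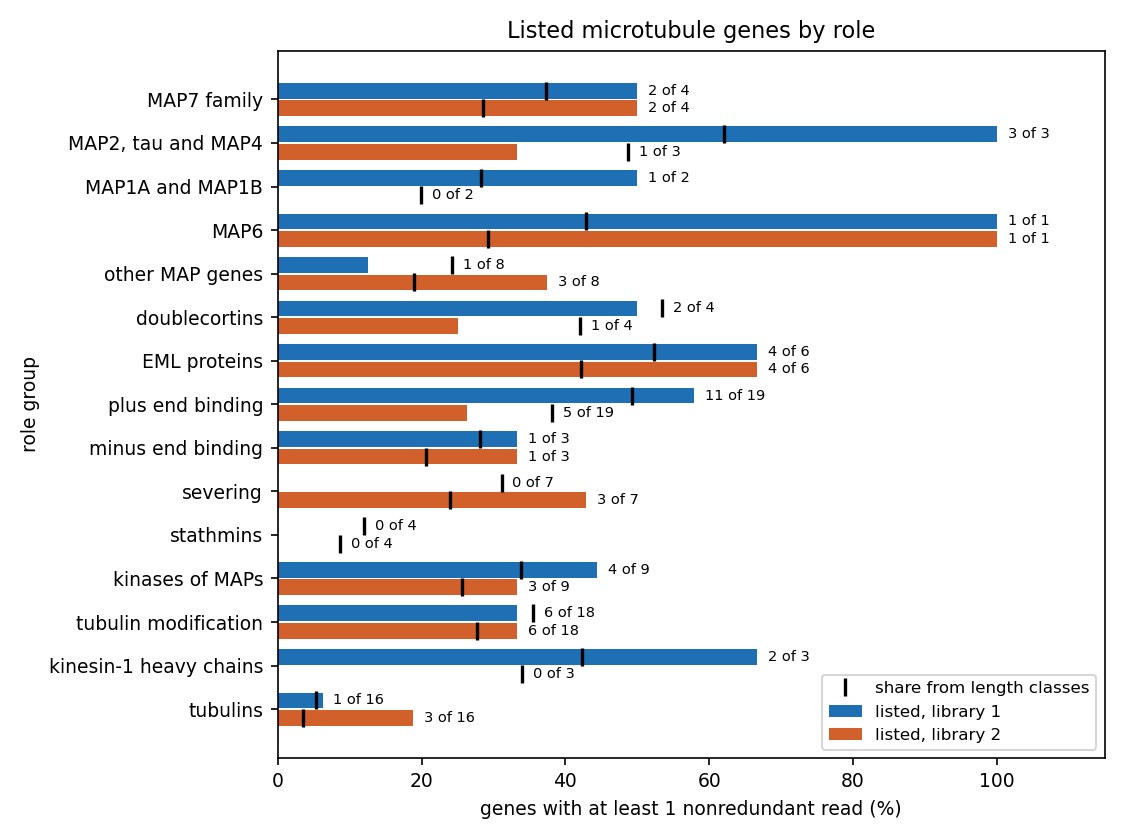
Bars give the percentage of genes in each role group with at least 1 nonredundant read in library 1 (blue) and library 2 (orange), with the counts beside them and a black tick at the share that the length classes of the same genes give. The members occupy the upper 4 groups. All 3 genes of the MAP2 and tau family were listed in library 1. Of these, Map2 was chosen for its reads, and Mapt and Map4 had 1 read each. Of the severing genes, 0 of 7 were listed in library 1 and 3 of 7 in library 2.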

How the data were processed

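Genomic DNA of 4 samples was measured, in 2 libraries of 2 samples. Each deposited table holds, per the file headers, a gene symbol, RefSeq transcripts and 2 columns of raw read counts, nonredundant and redundant, made by the authors without normalization. CASAVA, BWA and the mouse build mm9 are named, without versions, per the submitters' processing notes. How reads were assigned to genes or made nonredundant is not given in the sources used here. Each table pools its samples, so no test was run. The totals were 55442 and 48750 nonredundant and 877870 and 1300140 redundant reads.

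Genes were matched through transcripts, then symbol or synonym, to RefSeq genes of GRCm38.p6 (4182 of 4184 and 3167 of 3168 matched). The background was the 21031 protein coding genes with curated transcripts. Lengths served only for classes and percentiles. Exact intervals came from scipy 1.17.1, checked on simulated data. Alternatives were minima of 2 or 10 reads, symbols only, redundant reads, totals without the 10 leading genes, and 20 length classes.

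The members and the microtubule gene groups were chosen with earlier results of these data known. The genes named are all members, up to 3 per other group by summed reads, the 3 nearest to Map7 and to Map2 in profile, and, chosen after their values were seen, adjacent genes, the leading redundant gene and members of small groups. An item that this rule gives is not reported here by name.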

Additional observations from a re-analysis of the deposited data

How the results depend on the processing

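A minimum of 2 nonredundant reads lowered the members listed from 7 to 4 in library 1 and from 4 to 2 in library 2, and a minimum of 10 lowered them to 3 and 1. With redundant reads the share of all members was 7.01% in library 1 and 0.00508% in library 2, beside 2.51% and 0.0451%. Leaving out the 10 other genes with most reads gave 2.94% and 0.0782%. Matching by symbol alone, and 20 length classes (4.29 and 3.17 genes from the class shares), left the listed and length-class counts within 1.5 times. The 2 members with a share at least 10-fold higher in library 1, Map7 and Map2, were 2 with redundant reads and without the leading genes. Of 30 alternatives for single genes, 10 moved the value beyond its counting interval and none turned a 10-fold difference around. For Map7 the fold was 9091.8 with redundant reads and 265.4 without the leading genes. For Map6 it was 3.26 and 1.07. Leaving out a sample could not be done, since each table pools its 2 samples. No paired analysis was possible because the tables carry no column per sample. Depth limits the members with 1 to 3 reads, whose presence rests on those reads.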
